A study of Mus musculus with 48 samples.

Results

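The genes described here are 8 genes of the B lineage, namely Vpreb3, Pou2af1, Cd79a, Cd79b, Ms4a1, Blk, Pax5 and Cd22, measured in stromal cells sorted from mouse lymph nodes. They were chosen, with earlier results of these data known, as genes that B cells and B-cell lymphomas express and that lymph node stroma is not known for. Of the 8, 7 had a probe among the 19057 genes with a probe on the array, and 6 were bright enough to be tested among 13020 genes. Cd79a had no probe in the annotation and was not analysed here, and the probe of Pax5 lay below the background level in all 8 groups. Tumor groups came from mice injected intravenously with 200000 to 400000 Eu-Myc lymphoma B cells, in which tumor cells made up 4% to 10% of the lymphocytes of the lymph nodes, and naive groups came from Wt control mice without tumor. In the Eu-Myc model, Myc is driven by an immunoglobulin heavy chain enhancer, so that the lymphomas are of the B lineage, and the hosts keep their own lymphocytes. From both states, fibroblastic reticular cells (FRCs, CD31-gp38+), blood endothelial cells (BECs, CD31+gp38-), lymphatic endothelial cells (LECs, CD31+gp38+) and double-negative cells (DN cells, which stain for neither marker) of skin-draining lymph nodes were sorted after depletion of leukocytes with CD45 beads, and the sort also used antibodies to CD45 and Ter119. Each of the 8 groups had 3 biological replicates, each read on 2 array strips, and the RNA of a replicate was pooled from 4 to 6 sorts. The labels do not say whether replicates came from separate animals, so that p-values measure only the spread between these samples, and they give neither strain nor age.

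A B cell recognizes antigen with a membrane immunoglobulin that is held by the pair of CD79a and CD79b, whose tails carry the signal into the cell. Kinases of the Src family such as BLK pass the signal on, whereas CD22, a sialic acid-binding receptor, dampens it. PAX5 is the transcription factor that commits a cell to the B lineage, and POU2AF1 (OCA-B) is a coactivator that binds to the octamer factors OCT1 and OCT2 on DNA. VPREB3 is related to the surrogate light chain of the pre-B cell receptor, and MS4A1 is the surface protein CD20. In a lymph node these genes are known from the B cells of the follicles, and none of them is a known marker of fibroblasts or endothelium.

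Promoter sequences are shown for Vpreb3 and Pou2af1, the pair with the smallest adjusted p in DN cells, because the octamer is the DNA element through which the product of Pou2af1 acts. They are the 250 bases before the transcript start that the RefSeq promoter table gives for each gene (GRCm38.p6), read 5′ to 3′ on the strand of the gene, at chr10:75948050-75948299 for Vpreb3 and chr9:51213440-51213689 for Pou2af1. Of the 8 genes, 5 had a sequence in the table used, and Cd79b, Ms4a1 and Blk had none there. For Vpreb3 and Cd22 the start in the table lies within the full span of the gene in RefSeq, so that other annotated ends of these genes lie further upstream. Capitals mark a match on either strand to the octamer ATGCAAAT, whose reverse complement is ATTTGCAT.
Vpreb3: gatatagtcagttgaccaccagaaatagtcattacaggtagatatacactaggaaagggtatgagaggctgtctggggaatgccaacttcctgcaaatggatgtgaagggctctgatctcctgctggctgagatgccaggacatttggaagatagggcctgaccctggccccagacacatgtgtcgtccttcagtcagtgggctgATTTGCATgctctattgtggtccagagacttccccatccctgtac
Pou2af1: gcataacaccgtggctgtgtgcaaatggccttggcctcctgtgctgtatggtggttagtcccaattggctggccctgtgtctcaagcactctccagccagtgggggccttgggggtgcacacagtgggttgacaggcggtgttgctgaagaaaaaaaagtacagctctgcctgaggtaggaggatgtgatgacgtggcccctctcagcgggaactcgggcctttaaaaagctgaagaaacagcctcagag
The Vpreb3 promoter held 1 octamer on the opposite strand, which ended 37 bases before the start used in the table. The windows of Pou2af1, Cd22, Pax5 and Cd79a held no such match. Over all 32851 promoters of the table, 1.6% of windows of this length held the octamer. A match describes the letters and does not show that a factor binds there.

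All values are log2 signals, quantile normalized over the 48 strips. The background level, 5.63, lies 3 robust SDs above the most frequent value of all probes, which was 4.99. A strip held 863780 to 1044181 beads, each probe code having a median of 18 to 22, and the number of arrays limits the precision. The probes of the 7 genes had 5 to 34 beads per strip, and the strips of a replicate differed by a median of 0.10 to 0.24 for these probes. Each cell type lay on its own slide, and within every slide the naive replicates took the same 3 places and the tumor replicates the other 3. Tumor state can therefore not be told apart from position within the slide, nor cell type from slide. Marker genes followed the sort labels of FRCs, BECs and LECs, with median log2 signals of 14.50 in tumor and 14.41 in naive FRCs for FRC markers, 13.76 and 14.03 in tumor and naive BECs for BEC markers, and 13.75 and 13.82 in tumor and naive LECs for LEC markers. DN cells had pericyte and smooth muscle markers at medians of 11.71 in the tumor group and 11.72 in the naive group, beside FRC markers at 11.29 and 11.43. The sorts were not free of markers of other cell types. BEC markers had medians of 12.21 and 12.54 in tumor and naive LECs, and of 10.17 and 7.67 in tumor and naive DN cells. LEC markers had medians of 9.09 and 9.05 in tumor and naive BECs.

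Transcripts of B-lineage genes were higher in DN cells of tumor-bearing mice than in those of naive mice. In DN cells 5 of the 6 genes tested rose, Vpreb3, Pou2af1, Cd79b, Cd22 and Ms4a1, whereas 4.82% of all genes tested were called higher there. The count was 3 without DN tumor replicate 1 or 2, and 0 in a limma fit of the DN replicates alone. In BECs 1 rose, Vpreb3, against 3.65% of all genes. In FRCs and LECs none passed the limma test, against 6.44% and 0.799% of all genes called higher. At an unadjusted p under 0.05, 0 and 1 of the 6 were higher there. The standard errors of this model pool the spread of all groups. In fits of 1 cell type alone, 5 of the 6 in FRCs, 3 in BECs, 3 in LECs and 6 in DN cells were higher at an unadjusted p under 0.05. Over all 13020 genes, 4610, 2575, 1858 and 1279 had an unadjusted p under 0.05 in these fits. None of the 6 was called lower in any cell type, against 4.14% of all genes in FRCs, 1.5% in BECs, 0.138% in LECs and 2.63% in DN cells. The median difference of the 6 genes between tumor and naive mice was 0.53 in FRCs, 2.14 in BECs, 0.75 in LECs and 3.92 in DN cells on the log2 scale, beside medians over all genes of -0.03, -0.04, 0 and -0.07. The genes entered the test because at least 1 group mean lay above the background level, in Ms4a1 that of the tumor DN cells alone, so that these counts and medians describe the measurable genes. The sorted samples are bulk RNA, in which the number of cells of a type and the amount of RNA per cell cannot be told apart.

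**Figure D1:**
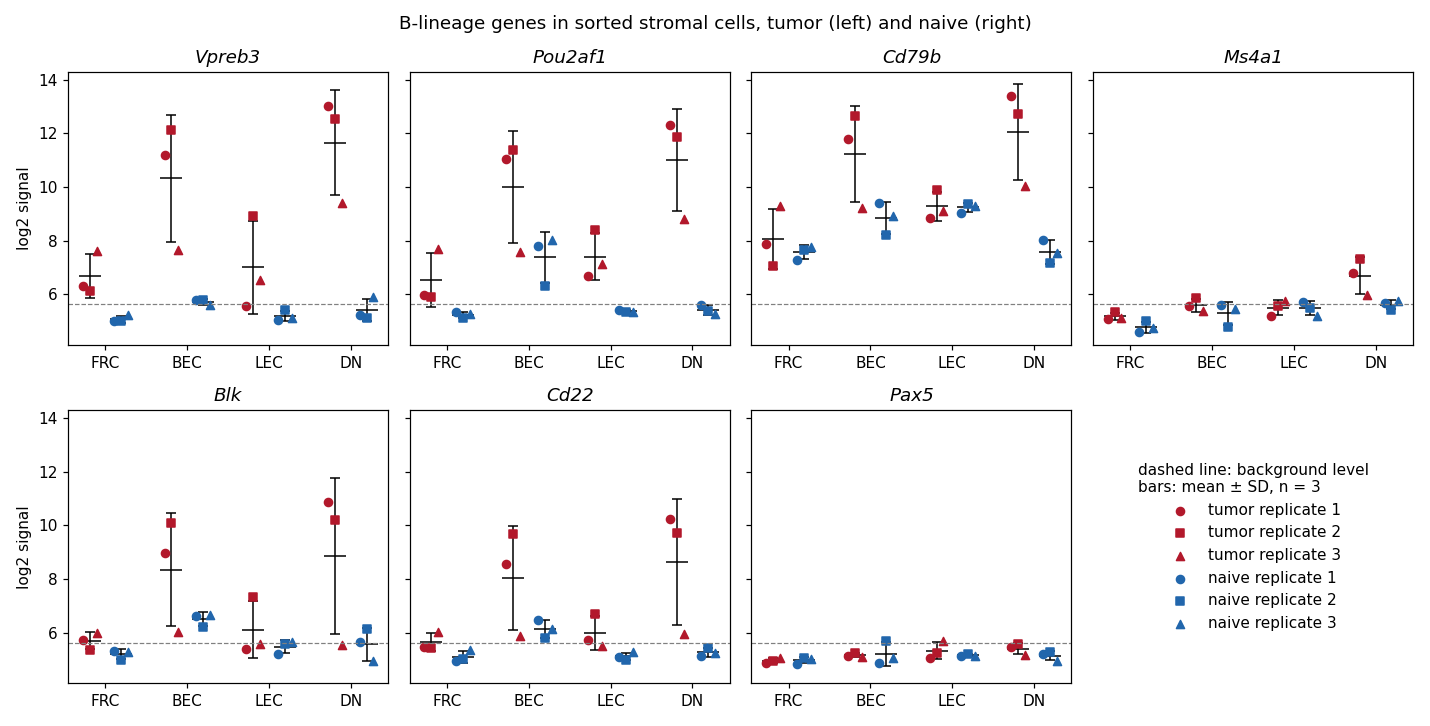
Log2 signal of 7 B-lineage genes (y axis) in FRCs, BECs, LECs and DN cells (x axis), with tumor replicates in red on the left and naive replicates in blue on the right of each pair, the mean ± SD as bars (n = 3) and the background level of 5.63 as a dashed line. The tumor points of BECs and DN cells are the highest and the most scattered, and all points of Pax5 lie near or below the line.

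Vpreb3 (probe ILMN_2469253), which encodes the relative of the surrogate light chain, was called in BECs as well as in DN cells. In DN cells its log2 signal was 13.03, 12.55 and 9.39 in tumor replicates 1 to 3, against 5.24, 5.13 and 5.89 in naive replicates 1 to 3. The groups were far apart, tumor replicate 3 stood below the other two, and naive replicate 3 alone of its group exceeded the background level. The difference was 6.24 (standard error 0.97, adjusted p = 6e-04), and since the naive mean (5.42) was below the background level, no fold is given. In BECs the tumor replicates had 11.20, 12.12 and 7.64 and the naive replicates 5.78, 5.80 and 5.61. Again the groups did not overlap and tumor replicate 3 was the lowest of its group. The difference in BECs was 4.59 (standard error 0.97, adjusted p = 0.0083), or 24.1-fold, and the call was lost without BEC tumor replicate 1 (adjusted p = 0.058) or 2 (adjusted p = 0.083). LECs had 5.56, 8.93 and 6.53 in the tumor group and 5.06, 5.42 and 5.12 in the naive group. FRCs had 6.30, 6.11 and 7.61 in the tumor group and 5.01, 4.99 and 5.23 in the naive group. In both of these cell types every tumor replicate lay above every naive one and every naive one below the background level, yet the tests missed the threshold (difference 1.81 in LECs with adjusted p = 0.64, and 1.60 in FRCs with adjusted p = 0.32).

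Pou2af1 (probe ILMN_1228328), the octamer coactivator, passed the test in DN cells. The tumor replicates of DN cells had log2 signals of 12.33, 11.88 and 8.82, and the naive replicates 5.61, 5.39 and 5.25. No naive replicate lay above the background level, so that the rise, 5.60 on the log2 scale (standard error 0.87, adjusted p = 6e-04), stands for a level at least 41.6-fold higher in the tumor group. In BECs the gene was measured in both states, at 11.03, 11.39 and 7.58 in the tumor group and 7.81, 6.30 and 8.03 in the naive group. Tumor replicate 3 lay within the naive range there, and the difference of 2.62 (standard error 0.87) missed the threshold (adjusted p = 0.089), which it passed without that replicate (3.83, adjusted p = 0.0036). LECs had 6.69, 8.39 and 7.15 in the tumor group and 5.40, 5.35 and 5.36 in the naive group. FRCs had 5.99, 5.90 and 7.69 in the tumor group and 5.34, 5.11 and 5.27 in the naive group. The groups did not overlap in either, with differences of 2.04 in LECs (adjusted p = 0.47) and 1.28 in FRCs (adjusted p = 0.39).

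Cd79b (probe ILMN_2610822) encodes a signaling subunit of the B-cell receptor and lay above the background level in all 24 replicates, naive ones included. In DN cells it reached 13.41, 12.72 and 10.04 in the tumor group, against 8.02, 7.17 and 7.56 in the naive group. The lowest tumor replicate was above the highest naive one, and the rise of 4.47 (standard error 0.78, adjusted p = 0.0015) was 22.2-fold. BECs had 11.79, 12.64 and 9.21 in the tumor group and 9.41, 8.23 and 8.91 in the naive group. Tumor replicate 3 of BECs overlapped the naive range, and the difference of 2.37 (standard error 0.78) missed the threshold with an adjusted p of 0.085, against 3.37 and 0.0054 without it. In LECs the values were 8.86, 9.90 and 9.10 in the tumor group and 9.05, 9.37 and 9.31 in the naive group. These groups overlapped, with a difference of 0.04 (95% confidence interval -1.59 to 1.66, adjusted p = 1). In FRCs the tumor replicates had 7.89, 7.05 and 9.29 and the naive replicates 7.28, 7.65 and 7.78. Their difference was 0.51 (adjusted p = 0.75) and rested on tumor replicate 3, without which it was -0.10.

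Ms4a1 (probe ILMN_2690194), the gene of CD20, stayed close to the background level throughout. DN cells had 6.79, 7.33 and 5.96 in the tumor group and 5.69, 5.41 and 5.75 in the naive group. All tumor replicates were above the naive ones, by 1.07 on average (standard error 0.27, adjusted p = 0.022), with a naive mean of 5.62 at the background level. The call was lost without DN tumor replicate 1 (adjusted p = 0.10) or 2 (adjusted p = 0.12). Elsewhere 2 of 9 tumor replicates and 1 of 9 naive replicates exceeded the background level. The differences were 0.41 in FRCs, 0.32 in BECs and 0.03 in LECs, with adjusted p-values of 0.38, 0.58 and 1.

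Cd22 (probe ILMN_3159170), the inhibitory receptor, followed the same order of tumor replicates as Vpreb3 in DN cells and BECs. In DN cells its log2 signal was 10.22, 9.73 and 5.93 in the tumor group and 5.12, 5.43 and 5.23 in the naive group. The naive replicates were all below the background level, and the rise of 3.37 (standard error 0.84, adjusted p = 0.019) stands for a level at least 7.96-fold higher in the tumor group. It missed the threshold without DN tumor replicate 1 (adjusted p = 0.14), DN tumor replicate 2 (adjusted p = 0.092) or DN naive replicate 3 (adjusted p = 0.053). BECs had 8.57, 9.67 and 5.88 in the tumor group and 6.46, 5.80 and 6.13 in the naive group. Tumor replicate 3 lay inside the naive range, and the difference was 1.91 (adjusted p = 0.21), or 2.99 without that replicate (adjusted p = 0.019). LECs had 5.74, 6.71 and 5.49 in the tumor group and 5.09, 4.98 and 5.27 in the naive group. FRCs had 5.46, 5.42 and 6.04 in the tumor group and 4.94, 5.00 and 5.34 in the naive group. Both pairs of groups stood apart by a small margin, with differences of 0.86 in LECs (adjusted p = 0.93) and 0.55 in FRCs (adjusted p = 0.75).

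Blk (probe ILMN_2976441), a Src-family kinase of B cells, varied most among the tumor replicates of DN cells. DN cells had 10.88, 10.19 and 5.52 in the tumor group and 5.64, 6.12 and 4.93 in the naive group. Tumor replicates 1 and 2 were far above every naive replicate, and tumor replicate 3 lay below the background level. The difference of 3.30 (standard error 1.01) narrowly missed the threshold (adjusted p = 0.052) and was 4.97 (adjusted p = 2e-04) without tumor replicate 3. In BECs the tumor replicates had 8.95, 10.07 and 6.01 and the naive replicates 6.63, 6.21 and 6.65. Here tumor replicate 3 was the lowest of all 6 values, and the difference of 1.85 did not pass (standard error 1.01, adjusted p = 0.33). LECs had 5.39, 7.34 and 5.59 in the tumor group and 5.19, 5.59 and 5.64 in the naive group, and FRCs had 5.74, 5.36 and 6.00 in the tumor group and 5.33, 4.98 and 5.29 in the naive group. The differences were 0.63 in LECs (adjusted p = 0.98) and 0.50 in FRCs (adjusted p = 0.82).

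Pax5 (probe ILMN_2687307), the B-lineage commitment factor, was not well above background in any group. Its 24 replicate values ran from 4.82 to 5.70, and 2 of them exceeded the background level, BEC naive replicate 2 and LEC tumor replicate 3, both at 5.70. In DN cells, where the other genes were highest, it had 5.48, 5.56 and 5.17 in the tumor group and 5.21, 5.26 and 4.96 in the naive group. These values have only an upper bound, and in a model without the filter on dim genes the difference in DN cells was 0.26 (standard error 0.18, adjusted p = 0.51).

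**Figure D2:**
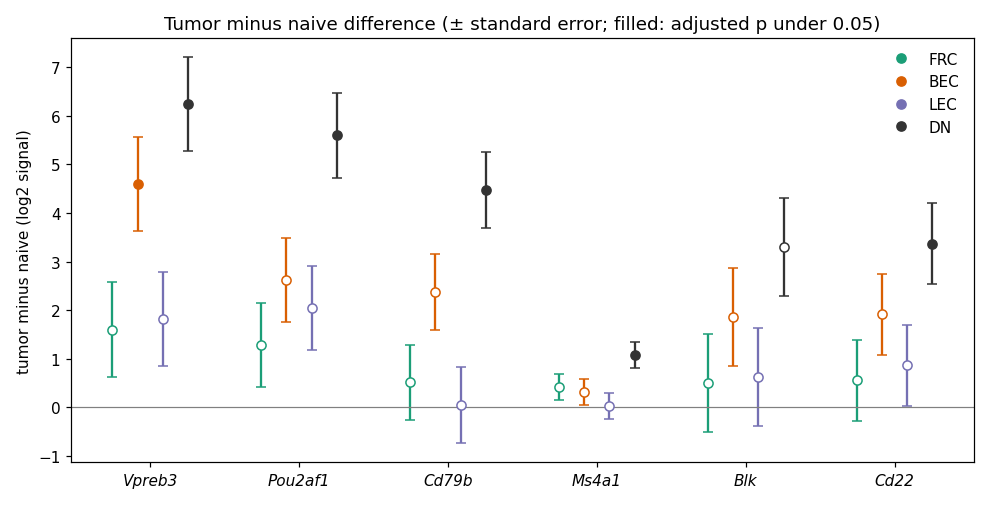
Tumor minus naive difference in log2 signal (y axis) of the 6 tested genes (x axis) in FRCs, BECs, LECs and DN cells, as estimates with standard errors from limma, with filled points for an adjusted p under 0.05. DN cells have the highest point for every gene, and the filled points are the 5 of DN cells and Vpreb3 in BECs.

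Among the tumor groups the mean levels of 5 of the 6 genes were ordered in the same way, with DN cells highest, BECs next, then LECs, and FRCs lowest. Ms4a1 was also highest in DN cells, and its means in the other tumor groups were below the background level and have no order. For Vpreb3 the means were 11.66 ± 1.97 in DN cells, 10.32 ± 2.37 in BECs, 7.01 ± 1.73 in LECs and 6.67 ± 0.82 in FRCs (SD, n = 3 each). Neighbors in this order overlapped in their replicates for every gene, except that the tumor DN cells lay above the tumor BECs for Ms4a1. The test of whether the tumor minus naive difference itself differed between 2 cell types was passed by none of the 6 genes in any of the 6 pairs of cell types in limma. At an unadjusted p under 0.05 the FRC difference was below that of DN cells for 4 genes and the LEC difference below that of DN cells for 5. The share over all genes at this unadjusted threshold is not given, so that these counts cannot be set beside it. The smallest adjusted p-values were those of FRCs against DN cells for Cd79b (difference of -3.96, standard error 1.10, adjusted p = 0.086) and Pou2af1 (difference of -4.31, standard error 1.23, adjusted p = 0.093). Over all genes and the 6 pairs, 0.575% of such tests passed at the adjusted threshold. Leaving out DN tumor replicate 3 brought the count of calls over the 6 pairs to 6, and leaving out BEC tumor replicate 3 brought it to 3. Calls over all genes moved too. Without DN tumor replicate 3, 1243 genes were called higher in DN cells, against 627. Without BEC tumor replicate 3, 886 were called higher in BECs, against 475. The share of tests between cell types that passed over all genes is not given for these fits. An effect that passed in DN cells and not in LECs or FRCs was therefore not shown to differ between them with all replicates included.

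Averaged over the 4 cell types with equal weight, all 6 genes were higher in the tumor state, against 12.8% of all genes. This mean difference was 3.56 for Vpreb3 (standard error 0.48, adjusted p = 3.5e-05), 2.88 for Pou2af1 (standard error 0.44, adjusted p = 0.00011) and 1.85 for Cd79b (standard error 0.39, adjusted p = 0.0021). It was 1.67 for Cd22, 1.57 for Blk and 0.46 for Ms4a1, with adjusted p-values of 0.0075, 0.03 and 0.021. Ms4a1 was among the tested genes through its mean in tumor DN cells alone. The mean does not show a rise in each cell type, since Cd79b and Ms4a1 differed by 0.04 and 0.03 in LECs. Median differences of the 6 genes were 3.92 in DN cells, 2.14 in BECs, 0.75 in LECs and 0.53 in FRCs. All 3 tumor replicates lay above all 3 naive replicates for 5 of the 6 genes in FRCs, 1 in BECs, 3 in LECs and 5 in DN cells. Over all genes tested, such a separation in this direction was seen for 19.6% in FRCs, 13% in BECs, 11.3% in LECs and 8.01% in DN cells. The FRC count of the B-lineage genes includes Ms4a1, of which no FRC replicate exceeded the background level. It also includes Blk and Cd22, with 2 and 1 tumor replicates and 0 naive replicates above that level.

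Naive stromal cells were not free of signal from these genes. By its brighter probe Cd79b was above background in every naive replicate, with means of 9.25 ± 0.17 in LECs, 8.85 ± 0.59 in BECs, 7.58 ± 0.43 in DN cells and 7.57 ± 0.26 in FRCs (SD, n = 3 each), and no neighbors in this order passed the test. Its second probe (ILMN_2661523) had naive means of 7.08 in LECs, 7.03 in BECs, 5.82 in FRCs and 5.33 in DN cells. With that probe all naive DN replicates (5.40, 5.43 and 5.16) lay below the background level, so that the naive DN signal depended on the probe. Pou2af1 had a naive mean of 7.38 ± 0.94 in BECs and lay below background in every naive replicate of LECs, DN cells and FRCs. Its naive difference between FRCs and BECs was -2.14 (standard error 0.87, adjusted p = 0.056). Blk and Cd22 were also above background in all 3 naive BEC replicates, and Vpreb3 in 2. Of the 6 genes in the 6 pairs of naive cell types, 1 passed, Ms4a1 with a difference of -0.84 between FRCs and DN cells (standard error 0.27, adjusted p = 0.02), while 39.2% of such tests passed over all genes and pairs. Both means, 4.77 in FRCs and 5.62 in DN cells, lay below the background level, which 2 of the 3 naive DN replicates and none of the naive FRC replicates exceeded, so that the size of this difference was not measured. The call was lost without naive replicate 1 or 3 of FRCs or of DN cells.

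The tumor replicates of a group differed widely, and they did so together across the genes. The standard deviation over the 3 tumor replicates reached 2.91 in DN cells and 2.37 in BECs, whereas that of the naive replicates was at most 0.60 in DN cells and 0.94 in BECs. Summed over the 7 measured genes, the linear signal was 27600, 18700 and 2380 in the tumor replicates of DN cells, against 519, 414 and 439 in the naive replicates. In BECs the sums were 8950, 15500 and 1180 in the tumor group and 1220, 644 and 1040 in the naive group. Tumor replicate 3 of BECs thus had a sum inside the naive range, and tumor replicate 3 of DN cells still exceeded every naive replicate. LECs had sums of 781, 2130 and 983 in the tumor group and 766, 909 and 872 in the naive group. FRCs had 540, 416 and 1220 in the tumor group and 351, 396 and 434 in the naive group. In LECs tumor replicate 2 stood highest and in FRCs tumor replicate 3. The sums of LEC tumor replicate 1 and FRC tumor replicate 2 lay within the naive range. Of the naive LEC sums, 532 to 664 came from Cd79b. In LEC tumor replicate 1 and FRC tumor replicate 2, Cd79b (log2 8.86 and 7.05) lay below every naive value. Vpreb3 (5.56 and 6.11) and Pou2af1 (6.69 and 5.90) lay above every naive value there. In BEC tumor replicate 3, Vpreb3 (7.64) was above every naive value, and Pou2af1 (7.58) was not. Taken as deviations from the mean of their cell type over 24 replicates, pairs of the 6 genes correlated with r between 0.75 and 0.98 (median 0.91), a description that includes the tumor difference itself and in which the replicates share cell types and slides.

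Other probes of the same genes showed the same direction in DN cells where they were bright enough. The second Cd79b probe (ILMN_2661523) had 12.05, 10.99 and 8.29 in the tumor DN cells and 5.40, 5.43 and 5.16 in the naive DN cells. Its tumor minus naive difference was 5.12 in DN cells, 2.29 in BECs, 0.33 in FRCs and -0.27 in LECs. The second Blk probe (ILMN_2976440) differed by 2.99 in DN cells and 1.42 in BECs, and a second Cd22 probe (ILMN_1221913) by 2.50 and 1.12. A further probe of Blk (ILMN_2697505) and of Cd22 (ILMN_3079866) had no group mean above the background level, with differences in DN cells of 0.47 and 0.10. These probes were described and not tested.

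Beyond the 8 genes, 18 other genes of the B lineage were tested, of which 6 rose in DN cells, 1 in BECs and none in FRCs or LECs, with 1 gene in FRCs and none in LECs higher at an unadjusted p under 0.05 and a median difference of 1.25 in DN cells. Fcrla, which encodes an intracellular Fc receptor-like protein of B cells, rose in DN cells (4.75, standard error 0.80, adjusted p = 0.0011) and in BECs (2.81, standard error 0.80, adjusted p = 0.048), a BEC call that was lost in 25 of 37 alternatives. Its DN values were 12.39, 11.56 and 9.11 in the tumor group and 7.07, 6.02 and 5.73 in the naive group. Tnfrsf13b and Tnfrsf13c, the genes of the receptors TACI and BAFFR for survival factors of B cells, rose in DN cells by 4.07 and 4.10 (adjusted p = 0.0052 and 0.0061). Cd37, a tetraspanin gene, rose by 3.37 there (adjusted p = 0.025), and Siglecg and Pou2f2, the gene of OCT2, also passed, the last of which lost its call in 25 of 37 alternatives. Of the immunoglobulin genes 1 was tested, Ighg1, with 9.24, 8.10 and 5.67 in the tumor DN cells and 5.25, 5.30 and 5.5 in the naive ones. All tumor values were higher, and the test missed the threshold (2.32, standard error 0.74, adjusted p = 0.06).

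Genes of early B cells, B-cell receptor signaling and plasma cells were counted in the same way. Of 7 early B-cell genes, 4 rose in DN cells and none in the other cell types in limma, where 1 was higher in BECs at an unadjusted p under 0.05. They were Cd93, which endothelial cells also express (3.05, standard error 0.66, adjusted p = 0.0082), Igll1, which encodes lambda5 of the surrogate light chain (1.73, standard error 0.50, adjusted p = 0.041), Il7r, the gene of the interleukin-7 receptor (2.67, adjusted p = 0.043), and Rag1, the gene of a recombinase subunit (0.59, adjusted p = 0.047). The call of Igll1 was lost in 18 of 37 alternatives, that of Il7r in 26 of 37 and that of Rag1 in 27 of 35. Among 14 genes of B-cell receptor signaling, 5 rose in DN cells and 3 in BECs, and none was called in FRCs or LECs in limma (2 lower in FRCs and 1 higher in LECs at an unadjusted p under 0.05). Btk, the kinase downstream of the receptor, rose by 5.57 in DN cells (standard error 0.86, adjusted p = 0.00059) and 3.34 in BECs (standard error 0.86, adjusted p = 0.028). The phosphatase gene Inpp5d (2.62, adjusted p = 0.0062) and the protein kinase gene Prkcb (3.13, adjusted p = 0.01) rose in DN cells, and the phosphatase gene Ptpn6 in BECs (2.82, adjusted p = 0.023). The BEC calls of Btk and Ptpn6 were each lost in 5 of 37 alternatives, among them leaving out tumor replicate 1 or 2 or naive replicate 1 or 3 of BECs, with adjusted p-values up to 0.22 and 0.19. Of 5 plasma-cell genes 1 passed, Mzb1, a chaperone of marginal zone B cells and plasma cells. It rose in DN cells (6.80, standard error 0.78, adjusted p = 4.4e-05, 111-fold), BECs (4.42, standard error 0.78, adjusted p = 0.0023) and FRCs (2.83, standard error 0.78, adjusted p = 0.026). In DN cells Mzb1 had 14.32, 13.54 and 11.42 in the tumor group and 6.57, 5.90 and 6.41 in the naive group. FRCs had 8.28, 7.82 and 10.17 in the tumor group and 6.09, 5.84 and 5.86 in the naive group, and all tumor replicates lay above the naive ones. The FRC call of Mzb1 was lost in 7 of 37 alternatives, among them leaving out tumor replicate 1 or 3 or any naive replicate of FRCs, with adjusted p-values up to 0.12. In FRCs 2 of the 5 plasma-cell genes had a difference above 0 and 1 was lower at an unadjusted p under 0.05, Sdc1, the gene of syndecan-1 (-1.12, adjusted p = 0.099), and the median was -0.16. None of 3 germinal-center genes passed in any cell type in limma, with Bcl6 at -0.52 in FRCs (adjusted p = 0.08) and Mef2b at 0.37 in FRCs (adjusted p = 0.10). At an unadjusted p under 0.05, 1 of the 3 was lower in each cell type and 1 was higher in FRCs.

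**Figure D3:**
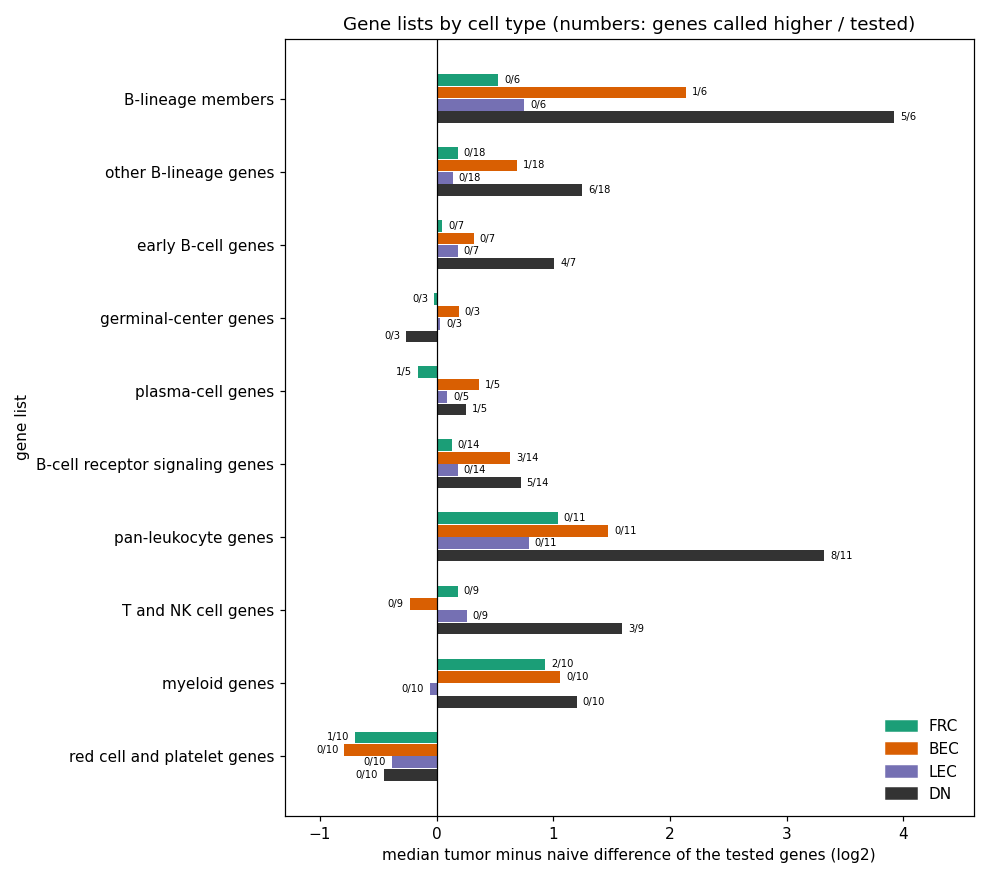
Median tumor minus naive difference in log2 signal (x axis) over the tested genes of 10 gene lists (y axis) in FRCs, BECs, LECs and DN cells, with the number of genes called higher out of those tested beside each bar. The bars of DN cells are the longest for the B-lineage and pan-leukocyte lists, with medians of 3.92 and 3.32.

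Genes that all leukocytes share moved beside the B-lineage genes. In DN cells 8 of 11 pan-leukocyte genes rose. None passed in FRCs, BECs or LECs in limma, where 4, 6 and 0 were higher at an unadjusted p under 0.05, and the medians were of 1.04 in FRCs, 1.47 in BECs, 0.79 in LECs and 3.32 in DN cells. Hcls1 (4.10, adjusted p = 3e-04), Ikzf1 (3.70, adjusted p = 0.0027), Coro1a (3.81, adjusted p = 0.004) and Rac2 (3.60, adjusted p = 0.0058) led the list in DN cells. The summed linear signal of the list was 75900, 54900 and 10300 in the tumor replicates of DN cells, against 7150, 6660 and 6000 in the naive replicates. Of the list, 16 genes had a probe, and Ptprc, the gene of CD45 itself, stayed low. Its probe (ILMN_2671984) had 5.69, 5.30 and 5.27 in the tumor DN cells and 5.01, 4.93 and 4.95 in the naive DN cells, and 1 of its 24 values exceeded the background level. All tumor values of Ptprc lay above the naive ones in DN cells. The difference was 0.46 in a limma model without the filter on dim genes (standard error 0.14, adjusted p = 0.079). Of 9 genes tested from the T and NK cell list, 3 rose in DN cells, Cd2 (3.19, adjusted p = 0.023), Lat (1.75, adjusted p = 0.031) and Zap70 (2.23, adjusted p = 0.034). Whether B-lineage cells express the genes of this list was not checked here, so that these calls do not name T or NK cells as their source. Cd3d, Cd3e and Cd3g did not pass there (1.59, 1.40 and 2.00, adjusted p = 0.36, 0.20 and 0.09). Cd247 and Cd8b1 differed by 0.01 and 0.16, and 6 of the 9 genes were higher at an unadjusted p under 0.05. Cd2 had 10.15, 9.89 and 5.76 in the tumor DN cells and 5.47, 5.35 and 5.41 in the naive ones, the same order of tumor replicates as Vpreb3. The summed signal of the 14 T and NK cell genes with a probe ran from 5430 to 9350 in the tumor DN cells and from 3760 to 5650 in the naive ones. Of 10 myeloid genes, Csf1r (0.94, adjusted p = 0.016) and Cd14 (1.80, adjusted p = 0.019) rose in FRCs, calls that were each lost in 4 of 37 alternatives, and none passed in BECs, LECs or DN cells in limma, where 4, 0 and 3 were higher at an unadjusted p under 0.05. The summed signals of the 14 myeloid genes with a probe were 4070 to 40800 in tumor and 3180 to 14300 in naive DN cells. Of 10 red cell and platelet genes, Pf4 rose in FRCs (3.14, adjusted p = 4e-04), whereas 4 were lower there at an unadjusted p under 0.05, 2 had a difference above 0, and the median was -0.70. Blood endothelial markers rose in DN cells as well, 3 of 7, Pecam1, the gene of CD31, by 3.26 (adjusted p = 0.004), Cdh5, the gene of VE-cadherin, by 2.45 (adjusted p = 0.0088), and Flt1, the gene of a VEGF receptor, by 2.54 (adjusted p = 0.048), a call lost in 23 of 37 alternatives. Their summed signal was 9750 to 12400 in the tumor group and 1390 to 5610 in the naive group. Of 6 pericyte and smooth muscle markers, Mcam rose in FRCs (3.22, adjusted p = 0.00037) and Acta2 in BECs (1.26, adjusted p = 0.032), the second of which lost its call in 6 of 37 alternatives. No marker of FRCs or LECs passed in any cell type in limma, with Dcn (1.19, adjusted p = 0.082), Col1a1 (1.72, adjusted p = 0.11) and Reln (1.74, adjusted p = 0.055) given here for BECs, and 3 of the 9 FRC markers were higher there at an unadjusted p under 0.05. Of the 6 LEC markers in BECs 2 had a difference above 0, 1 was lower at an unadjusted p under 0.05, and the median was -0.39. What part any of these cell types had in the values of the B-lineage genes was not tested, nor whether the transcripts came from lymphoma cells, B cells of the host or stromal cells. Myc, the oncogene of the model, was not called in any cell type (FRCs -0.21, BECs 0.18, LECs -0.64 and DN cells -0.11), with 8.0, 7.49 and 6.74 in the tumor DN cells and 7.02, 7.92 and 7.61 in the naive ones. In LECs Myc was lower at an unadjusted p under 0.05 in limma, with 6.87, 6.91 and 6.90 in the tumor group and 7.68, 7.42 and 7.50 in the naive group.

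The genes whose pattern was most like the mean of the 6 genes over the 24 replicates, as deviations from the cell type mean, were Jakmip1 (r = 0.993), Tnfrsf13c (0.992), Tnfrsf13b (0.991), Myo1g (0.987), Ly9 (0.983), Napsa and Fcrla (both 0.982), Nckap1l (0.981), and Rac2 and Tbc1d10c (both 0.978). Jakmip1 had 11.55, 10.82 and 7.44 in the tumor DN cells and 5.88, 5.26 and 5.46 in the naive ones. In DN cells its tumor replicates 1 and 2 were far above replicate 3, as for Vpreb3. Among the 6 genes themselves, the correlation with their mean ran from 0.796 for Ms4a1 to 0.973 for Cd22. These are descriptions over replicates that share slides and cell types.

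**Figure D4:**
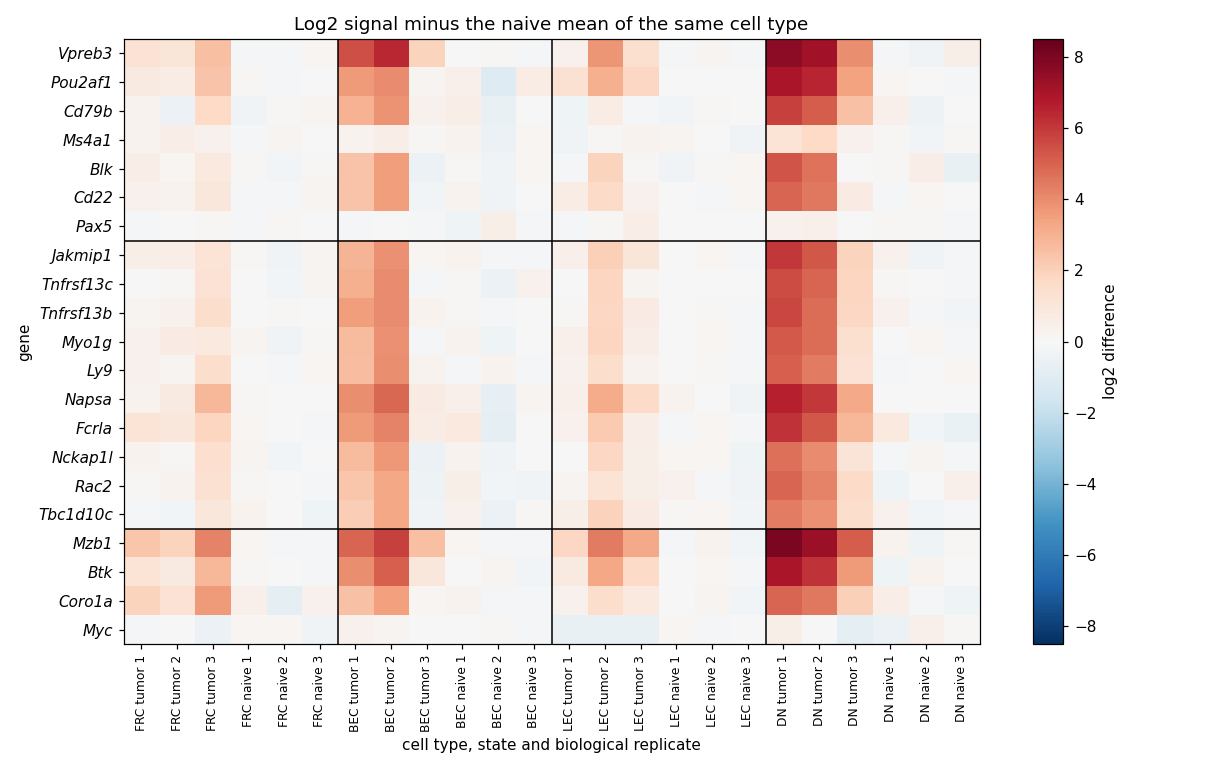
Log2 signal of each replicate minus the naive mean of its cell type (color) for the 7 B-lineage genes with a probe, the 10 genes most like them, and Mzb1, Btk, Coro1a and Myc (rows), with tumor replicates left of naive replicates for each cell type (columns). DN tumor replicates 1 and 2 and BEC tumor replicates 1 and 2 are the darkest columns, FRC tumor replicate 3 and LEC tumor replicate 2 stand out in their groups, and Myc and Pax5 stay pale.

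Leaving out single replicates moved the counts of calls. In DN cells 3 of the 6 genes were called without DN tumor replicate 1 or without DN tumor replicate 2, and 6 without DN tumor replicate 3. Over all 13020 genes, 216, 360 and 1243 were called higher in DN cells in these 3 fits, against 627 with all replicates. In BECs none was called without BEC tumor replicate 1 or 2, and 4 without BEC tumor replicate 3. Over all genes, the BEC counts were 198, 152 and 886 in these fits, against 475 with all replicates. Of 30 calls of other listed genes in DN cells, 21 were lost without DN tumor replicate 1, 17 without DN tumor replicate 2 and 15 without DN naive replicate 3. In a limma fit of the 6 DN replicates alone none of the 13020 genes passed, with all 6 B-lineage genes higher at an unadjusted p under 0.05 and adjusted p-values of 0.12 for Vpreb3, 0.14 for Pou2af1 and 0.18 for Cd79b.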

How the data were processed

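Gene expression was measured on Illumina mouse bead arrays in 24 biological replicates, 3 in each of 8 groups, with 2 strips each. The authors' deposited table holds log2 values of 45281 probes on 48 strips. How they were background corrected or normalized is not given in the sources used here. The deposited bead files hold an intensity per bead under a numeric code. For 2 of the alternatives, 45156 of 45160 probes were linked to a bead code by their profiles over the strips. A few intensities lie below 0, so background had been subtracted before deposit.

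The log2 values were quantile normalized, and the strips of each replicate averaged. Of 34885 probes with 1 gene symbol, the brightest stood for its gene; 18 probes with several symbols and 10378 without one were left out. Genes with at least 1 group mean above the background level (5.63) were tested, 13020 in all. A fold written with "at least" is taken against this level, because no replicate of the lower group exceeded it; in all other cases the group mean was used.

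Differences came from 1 limma model of the 8 group means (16 residual degrees of freedom, prior 3.19), with empirical Bayes moderation and Benjamini-Hochberg adjustment over all genes at a threshold of 0.05. The standard errors pool the spread of all groups. The script was tested on simulated data. This model did not pair replicates, and the replicate block, an alternative, took replicate numbers as pairs in every cell type. Deviations of each tumor replicate and the naive replicate of its number were all correlated above 0.1 only in LECs (0.20, 0.23 and 0.15). The block changed no call of the B-lineage genes in LECs. The members and gene lists were chosen with earlier results of these data known. From each other list, up to 4 genes with the smallest adjusted p are named where any passed and otherwise up to 2. A further pair that passed (Siglecg and Pou2f2) are named after their values were seen. So are genes that did not pass (Sdc1, Cd3d, Cd3e, Cd3g, Cd247 and Cd8b1). The 10 genes most like the members are named by their correlation.

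R 4.3.3, limma 3.58.1, Python 3.11.15, numpy 2.4.6, pandas 2.3.3, scikit-learn 1.9.0 and matplotlib 3.10.9 were used.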

Additional observations from a re-analysis of the deposited data

How the results depend on the processing

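Alternatives were the log2 values as deposited, centering each strip on its median, bead files with or without normexp (offset 50), no filter or a stricter filter (level 6.28) on dim probes, the mean of all probes of a gene, either strip alone, the cell type alone, array weights, a variance trend, a replicate block and leaving out each replicate. Counts of B-lineage genes called higher were as follows. In FRCs the count of 0 became 1 in the fit of the cell type alone (Vpreb3, adjusted p = 0.027), with 1310 higher over all genes, against 838. In BECs the count of 1 became 0 with the cell type alone and 5 with array weights (112 and 1970 higher over all genes, against 475), and ranged from 0 to 4 when single replicates were left out (4 without BEC tumor replicate 3, 3 without DN tumor replicate 3). In DN cells the count of 5 became 0 with the cell type alone and ranged from 3 to 6 without single replicates. The count of differences between cell types, 0 with all replicates, became 6 with array weights and ranged from 0 to 6 without single replicates (1 without FRC tumor replicate 3). The count among naive cell types, 1, became 2 with median centering, 0 with the second strip, 5 with array weights and 0 with the replicate block, and ranged from 0 to 3 without single replicates. For neither count is the share over all genes given under the alternatives. Array weights also raised the number of genes called higher in DN cells from 627 to 1464. The array weights fit stopped before its tolerance was reached. In LECs the count stayed at 0 under all 37 alternatives, and over the 4 cell types it was 5 or 6 of 6.

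The Cd79b difference in LECs turned to -0.11 with the mean of its probes, -0.03 with the second strip, -0.02 with array weights, -0.27 without LEC tumor replicate 2 and -0.06 without LEC naive replicate 1, with a range up to 0.25 without single replicates. That in FRCs turned to -0.10 without FRC tumor replicate 3, with a range up to 1.02. The Ms4a1 difference in LECs turned to -0.06 with the second strip, and to -0.10 and -0.11 without tumor or naive replicate 3 of LECs, with a range up to 0.18. Ms4a1 in DN cells lost its call with the second strip (adjusted p = 0.067). Blk in DN cells passed in 12 of 37 alternatives (adjusted p of 1e-04 to 0.50 over all 37), among them both bead-file settings (0.048).

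The replicate block was fitted in every cell type, although all pairs of its numbers were correlated above 0.1 only in LECs. It moved the DN calls of Ms4a1 (adjusted p = 0.076) and Blk (adjusted p = 0.049). Over all genes, it moved the DN counts from 627 higher and 342 lower to 495 and 214. All 6 LEC samples correlated best with their own number, against 5 of 6 in FRCs and 0 of 6 in BECs and in DN cells. Over all genes, the DN calls were 216 higher and 94 lower without DN tumor replicate 1, 1464 and 1490 with array weights, and none with the DN replicates alone, where 1279 genes had an unadjusted p under 0.05. The cause of these shifts was not tested. Signals near the background level limit what can be said of Pax5, Ms4a1 and Ptprc.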
